A study of Rattus norvegicus with 6 samples.

Results

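The genes described here encode the nuclear subunits of the oxidative phosphorylation (OXPHOS) machinery of mitochondria. They were taken by symbol from the combined count table of rat nucleus pulposus cells (NPCs): every row whose symbol began with Nduf followed by a, b, c, s or v, every Sdh subunit a to d, every row beginning with Uqcr or Atp5, every Cox row numbered 4 to 8 with a letter a to c, and Cyc1 and Cycs. Of 90 matching rows, 15 that were assembly factors or pseudogenes were dropped, which left 75 of the 20264 rows of the table. Complex I held 36 of them, complex II 4, complex III 7, complex IV 12 and complex V 15, and Cycs stood apart. RefSeq lists 110 protein-coding rat symbols of this form, of which 74 were in the table. The 36 others, among them Cox8a, Ndufa1 and Atp5mc1, were not analysed here. The rule used symbols and no measured value, but it was set with earlier results of these data known.

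The 6 libraries came from primary NPCs of wild type male Sprague-Dawley rats, released from the discs of tail vertebrae with collagenase II and grown in medium with fetal bovine serum. All 6 cultures received tert-butyl hydroperoxide (TBHP), an oxidant used to induce senescence, and 3 of them also received recombinant rat FGF21, a secreted metabolic hormone. The comparison therefore asks what FGF21 added to TBHP, and no culture without TBHP is part of it. The dose of FGF21 given to these cultures and the ages of the rats are not given in the sources used here, and nothing says whether the 3 biological replicates of a group came from separate animals, so the p-values measure only the spread between these samples. The treatment labels name FGF21 for replicate 1 of the TBHP+FGF21 group, but FGF22 for replicate 2 and FGF23 for replicate 3, whereas the series design and the treatment protocol give FGF21 for the whole group. The grouping by title was kept, and the results are also given without replicate 2, since that library was the highest of its group for most of these genes.

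In the inner mitochondrial membrane, complexes I and II pass electrons from NADH and succinate to ubiquinone, complex III passes them to cytochrome c, and complex IV passes them to oxygen. Complexes I, III and IV pump protons as they do so, and complex V, the ATP synthase, uses the returning protons to make ATP. Most complexes consist of a few catalytic subunits, some of them encoded by mitochondrial DNA, surrounded by many small accessory subunits from nuclear genes. The nucleus pulposus is a poorly vascularized tissue whose cells rely largely on glycolysis, although they contain mitochondria.

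Libraries held 18277732 to 22426190 counts in genes of the combined table, and the OXPHOS members together took 0.533% to 0.703% of them. Of the 75 members, 70 had at least 1 count and 69 passed the filter on low counts. Levels are given as CPM (counts scaled by library size and TMM), and differences as log2 fold changes of TBHP+FGF21 against TBHP. The markers of the labelled cell type were mixed. Of 11 nucleus pulposus and notochord genes, Acan (aggrecan, the main disc proteoglycan) lay between 2506 and 4355 CPM. Foxf1 lay between 39.8 and 62.1 CPM, Cdh2 between 35.6 and 46.1 CPM and Krt8 between 2.31 and 4.27 CPM. Cd24 lay between 0.718 and 2.13 CPM, and Car12 had 2 to 13 counts. The notochordal genes Tbxt, Shh and Noto had 0 counts in every library, Krt18 had at most 3 counts, and Col2a1 stayed at or below 0.782 CPM. Of the 6 fibroblast and annulus genes, Col1a1 reached 27868 to 42463 CPM and Thy1 1021 to 1188 CPM, Dcn and Pdgfra lay between 88.6 and 232.2 CPM and Lum between 6.22 and 12.2 CPM, whereas Col1a2, the partner chain of Col1a1, had 7 to 17 counts. Of 8 leukocyte genes, Ptprc and Adgre1 had 0 counts throughout and 4 others at most 6 counts in a library, but Cd68 had 28 to 52 and Cd14 527 to 701 counts. Of 5 endothelial genes, Cdh5, Kdr and Tie1 had 0 counts, Tek 1 to 11 and Vwf 7 to 15. Of 5 muscle genes, Myod1 had 0 counts, Ckm at most 1, Myh1 7 to 19 and Acta1 32 to 92, and Des lay between 136.8 and 222.6 CPM. Because these were bulk samples, fewer cells of a type and less RNA per cell cannot be told apart.

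With FGF21, most OXPHOS subunit genes had lower values than with TBHP alone, by a small margin, and none passed the test over all genes. Of the 69 members tested, 63 had a log2 fold change below 0, against 51.1% of all genes tested. The median over the members was -0.28, which compares with -0.0052 over all 11426 genes, and the values ran from -0.81 (Cox6a2) to 0.11 (Atp5f1a). An unadjusted p under 0.05 was reached by 15 members, all of them lower, where 8.92% of all genes reached it in either direction and 4.29% in the lower direction. After Benjamini-Hochberg adjustment in edgeR's quasi-likelihood test, 0 members were called and their smallest adjusted p was 0.553. DESeq2 called 0 members as well, with 17 at an unadjusted p under 0.05, against 7.98% of all genes. With limma-voom 0 were called and 12 had an unadjusted p under 0.05, against 8.72% of all genes. Over the whole table edgeR called 1 gene (0.00875%). It was Sirt1, a deacetylase named here after its values were seen, and 0 genes were called from the counts in the per-sample files.

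The lower values were tied to particular libraries. In 62 of the 69 members replicate 3 was the lowest of the TBHP group, an order seen in 36.8% of all genes. In 53 members replicate 2 was the highest of the TBHP+FGF21 group, against 38.7% of all genes, and both orders held in 52 members, against 19.4%. The summed level of all 75 members was 7066, 7022 and 5506 CPM in the TBHP libraries (replicates 1, 2 and 3, the order used throughout) and 5311, 6379 and 5646 CPM in the TBHP+FGF21 libraries. TBHP replicate 3 thus lay with the lower values, below replicate 3 of the TBHP+FGF21 group, and TBHP+FGF21 replicate 2 lay between them and the first pair of TBHP libraries. In 0 of the 69 members did the groups separate completely, which they did in 9.90% of all genes. For 40 members the difference between the group means of log2 CPM was smaller than the pooled SD of the libraries within groups.

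**Figure D1:**
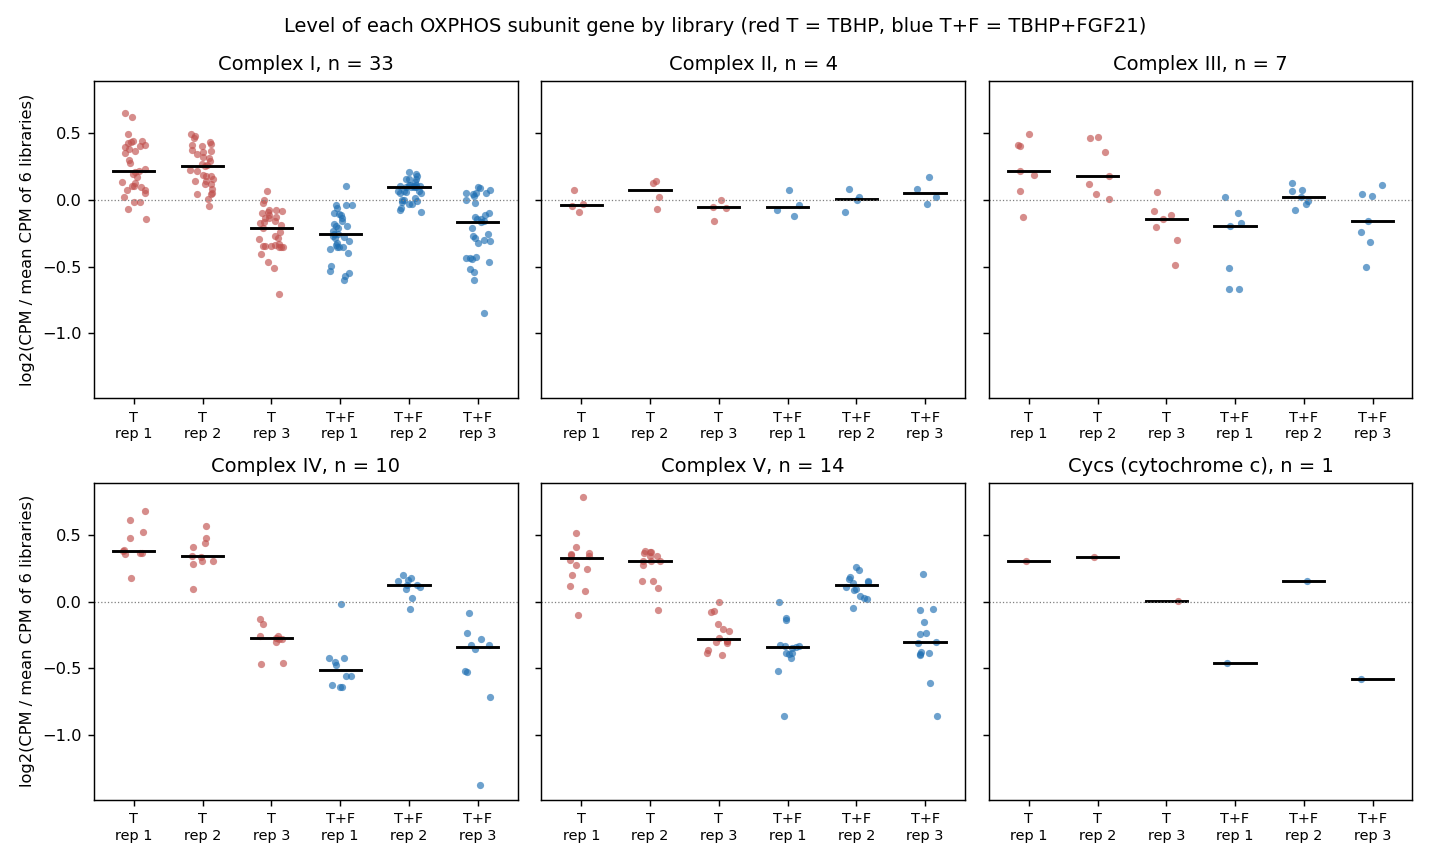
Level of each OXPHOS subunit gene in each library, as the log2 ratio of its CPM to its mean over the 6 libraries (y axis), by complex. Each point is 1 gene, the black line is the median of the genes in that library, red points (T) are TBHP libraries and blue points (T+F) are TBHP+FGF21 libraries. In complexes I, III, IV and V the medians of TBHP replicate 3 and of TBHP+FGF21 replicates 1 and 3 lie below 0 and those of the other 3 libraries above it, whereas the medians of complex II stay between -0.06 and 0.07.

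Cycs encodes cytochrome c, the mobile carrier between complexes III and IV, and it had the smallest unadjusted p of all members. The sequence of the 250 bases before its annotated start is shown with that of a complex IV gene with the largest difference (Cox6a2) and of a complex II gene that was nearly level (Sdha), because subunit genes are known to share binding motifs of respiratory transcription factors. The sequences are RefSeq's for the rat build GRCr8, at chr4:80984768-80985017 on the minus strand for Cycs, chr1:192219717-192219966 on the minus strand for Cox6a2 and chr1:30764303-30764552 on the plus strand for Sdha. Capitals mark matches to motifs of the factor NRF1, namely its core 157 bases before the start in Cycs and its consensus 89 and 46 bases before it in Sdha.
Cycs: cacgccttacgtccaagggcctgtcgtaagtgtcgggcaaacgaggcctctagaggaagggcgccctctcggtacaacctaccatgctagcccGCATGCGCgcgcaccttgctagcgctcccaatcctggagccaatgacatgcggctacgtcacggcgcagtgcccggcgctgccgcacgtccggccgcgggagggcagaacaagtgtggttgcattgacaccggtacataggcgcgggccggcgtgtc
Cox6a2: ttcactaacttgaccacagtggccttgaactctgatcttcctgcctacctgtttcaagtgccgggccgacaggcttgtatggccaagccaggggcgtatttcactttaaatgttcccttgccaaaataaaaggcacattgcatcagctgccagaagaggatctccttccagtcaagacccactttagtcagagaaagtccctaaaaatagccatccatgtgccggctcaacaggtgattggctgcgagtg
Sdha: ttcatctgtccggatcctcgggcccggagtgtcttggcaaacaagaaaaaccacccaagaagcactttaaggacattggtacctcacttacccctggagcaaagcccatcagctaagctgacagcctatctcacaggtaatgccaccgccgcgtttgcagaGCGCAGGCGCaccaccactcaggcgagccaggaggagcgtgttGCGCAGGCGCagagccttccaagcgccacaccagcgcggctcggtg

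The motifs searched on both strands were the consensus motif of NRF1 and the shorter GCATGCGC core of the same factor, which can overlap, CCGGAAGT for ETS factors of the GABPA type, AAGATGGCG for YY1 and TCAAGGTCA for the estrogen-related receptors (ERR). RefSeq gave a promoter for 61 of the 69 members tested. The NRF1 consensus was found in 9 of these (14.8%), against 9.46% of the 9226 genes tested that had a promoter and 4.17% of all 27457 promoters. GCATGCGC was also found in 9 (14.8%), against 4.95% and 2.38%. CCGGAAGT was found in 6 (9.84%), against 7.18% and 3.29%, and the YY1 and ERR motifs in 1 member each. No NRF1 motif was found in the 8 complex IV promoters, whereas the 13 promoters of complex V held the consensus in 3 and GCATGCGC in 4. Of the genes shown, Cycs held a match, Cox6a2 none, and Sdha, which was nearly level, a pair.

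Cycs stood at 93.4, 95.0 and 75.6 CPM in the TBHP libraries and at 54.8, 84.0 and 50.7 CPM in the TBHP+FGF21 libraries. Replicates 1 and 3 with FGF21 lay below every TBHP library, and replicate 2 lay within their range, so the groups overlapped. Its log2 fold change was -0.48 (SE 0.17, unadjusted p = 0.0149 in the edgeR fit) and ranged from -0.73 to -0.34 when each library was left out.

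Complex I has a catalytic core, of which 7 subunits come from nuclear genes (among them Ndufs1 and Ndufv1), and the remaining symbols are accessory subunits that surround it. This division, like that of complexes III and V below, was made after the values had been seen. The core genes were close to level, with a median log2 fold change of -0.04 and a range from -0.22 to 0.02, and 0 of the 7 had an unadjusted p under 0.05. Of the 26 accessory genes tested, 25 were lower and 1 was higher, with a median of -0.27, and 7 of the lower ones had an unadjusted p under 0.05. The summed core level was 594.7, 596.6 and 527.1 CPM with TBHP and 527.4, 566.8 and 579.0 CPM with FGF21. The summed accessory level was 1446, 1451 and 1036 CPM with TBHP and 1019, 1278 and 1041 CPM with FGF21. The accessory sum of TBHP replicate 3 lay beside those of TBHP+FGF21 replicates 1 and 3.

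Ndufa3 and Ndufb5, small membrane-associated accessory subunits, were the complex I genes with the largest difference and the smallest p. Ndufa3 had 17.1, 14.7 and 8.77 CPM with TBHP and 8.43, 11.6 and 6.19 CPM with FGF21, a log2 fold change of -0.63 (SE 0.25). Ndufb5 had 26.3, 23.4 and 17.4 CPM with TBHP and 15.3, 20.2 and 14.5 CPM with FGF21, a log2 fold change of -0.43 (SE 0.17). For Ndufb5 the counts on both strands together were 2.38 times the unstranded count analysed here, so its values are uncertain. In both genes only replicate 2 of the TBHP+FGF21 group lay above TBHP replicate 3, the lowest of its group. Ndufa13, also known as GRIM-19, had 77.4, 82.2 and 45.6 CPM with TBHP and 39.9, 63.8 and 40.6 CPM with FGF21 (log2 fold change -0.51, SE 0.22). Ndufb4 had 102.1, 103.9 and 63.8 CPM with TBHP and 55.2, 84.0 and 57.9 CPM with FGF21 (-0.45, SE 0.19). Ndufs4, an accessory subunit needed for a stable complex and mutated in Leigh syndrome, had 30.6, 32.0 and 25.2 CPM with TBHP and 21.1, 26.5 and 23.7 CPM with FGF21 (-0.30, SE 0.13). In these 3 genes FGF21 replicate 2 lay inside the range of the TBHP group and FGF21 replicates 1 and 3 below it. Ndufa10 had the highest log2 fold change of complex I, with 83.1, 81.4 and 84.1 CPM with TBHP and 90.3, 78.9 and 86.6 CPM with FGF21 (0.04, SE 0.09), and its groups overlapped with no order by treatment.

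The related genes Ndufa4 and Ndufa4l2 differed from each other in their values. Ndufa4, counted here with complex I by its symbol although its protein is now placed with complex IV, had 28.2, 27.6 and 16.3 CPM with TBHP and 16.4, 22.3 and 13.7 CPM with FGF21 (log2 fold change -0.46, SE 0.21). Ndufa4l2, a homolog known to be induced by hypoxia, had 183.4, 187.8 and 154.9 CPM with TBHP and 157.9, 184.3 and 154.2 CPM with FGF21 (-0.08, SE 0.11). The difference between these 2 fold changes was not tested, and for Ndufa4 the counts on both strands together were 4.21 times the unstranded count, so its values are uncertain. Ndufb11b had 0 to 7 counts and was removed by the filter, and Ndufa10l1 and Ndufb4l1 had 0 counts in every library.

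Complex II (succinate dehydrogenase) also belongs to the tricarboxylic acid cycle and has 4 subunits, all nuclear. Sdha, the flavoprotein that oxidizes succinate, had 128.1, 126.3 and 132.6 CPM with TBHP and 125.9, 132.6 and 149.4 CPM with FGF21. Sdhb, the iron-sulfur subunit, had 98.0, 101.9 and 83.6 CPM with TBHP and 91.0, 94.5 and 91.2 CPM with FGF21. The groups overlapped in both. The membrane anchor Sdhc had 134.8, 140.3 and 132.3 CPM with TBHP and 145.1, 129.7 and 146.0 CPM with FGF21, and the other anchor, Sdhd, 43.2, 51.0 and 44.5 CPM with TBHP and 42.5, 48.8 and 46.9 CPM with FGF21. The log2 fold changes were 0.08 (SE 0.09) for Sdha, -0.04 (SE 0.10) for Sdhb, 0.05 (SE 0.09) for Sdhc and -0.0063 (SE 0.10) for Sdhd, so that the differences were smaller than their errors. These errors leave room for small differences in either direction.

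In complex III, the catalytic and core subunits differed less than the small ones. The former are cytochrome c1 (Cyc1), the Rieske protein (Uqcrfs1) and the core proteins Uqcrc1 and Uqcrc2, with a median log2 fold change of -0.08 and 0 of 4 at an unadjusted p under 0.05. Uqcrc1 had 210.6, 191.2 and 175.0 CPM with TBHP and 161.2, 184.4 and 188.6 CPM with FGF21 (-0.11, SE 0.10). Uqcrc2, whose counts on both strands together were 1.30 times the unstranded count, had 71.4, 78.6 and 81.5 CPM with TBHP and 79.3, 74.3 and 84.6 CPM with FGF21 (0.04, SE 0.09). The 3 small subunits had a median of -0.49. Uqcrh, the acidic hinge protein that helps cytochrome c to dock, had 55.6, 53.4 and 36.2 CPM with TBHP and 26.2, 43.7 and 35.3 CPM with FGF21 (-0.46, SE 0.19, unadjusted p = 0.0287 in edgeR). Uqcrb, which contributes to the ubiquinone site, had 14.1, 14.9 and 8.67 CPM with TBHP and 6.73, 11.2 and 8.59 CPM with FGF21 (-0.50, SE 0.22, unadjusted p = 0.0433 in edgeR). In each, TBHP replicate 3 was close to replicate 3 of the other group. Uqcr10, the remaining small one, had a log2 fold change of -0.49 (SE 0.23).

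Complex IV (cytochrome c oxidase) had the lowest median of the complexes, -0.38, and all 10 of its genes tested were lower. The enzyme's catalytic subunits are mitochondrially encoded, and the genes here supply the nuclear subunits, several of them as tissue isoforms. Its summed level was 976.3, 930.9 and 632.6 CPM with TBHP and 575.4, 811.1 and 611.5 CPM with FGF21, so TBHP replicate 3 again lay near TBHP+FGF21 replicates 1 and 3. Cox6a2, the heart and skeletal muscle isoform of subunit 6a, had 22.5, 19.5 and 11.6 CPM with TBHP and 9.52, 15.7 and 5.41 CPM with FGF21, a log2 fold change of -0.81 (SE 0.32, unadjusted p = 0.0259 in edgeR). Of the muscle markers tested, Acta1 had 2.63, 3.17 and 3.66 CPM with TBHP and 1.56, 4.40 and 1.40 CPM with FGF21. Like Cox6a2 it was highest in replicate 2 and lowest in replicate 3 of the FGF21 libraries. In the TBHP libraries the 2 genes had opposite orders, since Acta1 rose and Cox6a2 fell from replicate 1 to replicate 3. Des had the opposite order to Acta1 in the FGF21 libraries, with 174.3, 136.8 and 222.6 CPM. Without FGF21 replicate 2 the log2 fold change was -1.09 for Acta1 (adjusted p = 0.0197 in edgeR) and 0.43 for Des (adjusted p = 0.0265). Leaving out that library lowers the group mean of Acta1 and raises that of Des by construction. That fit called 7.50% of all genes, so these p-values are no separate support. The part of muscle-type RNA in the Cox6a2 values was not tested. Cox6a1, the isoform of most other tissues, had 212.0, 201.2 and 136.0 CPM with TBHP and 117.1, 175.5 and 134.0 CPM with FGF21 (-0.36, SE 0.17). The difference between the isoforms was not tested.

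Among the other complex IV genes, Cox6c had 109.6, 104.7 and 65.3 CPM with TBHP and 51.0, 87.5 and 54.7 CPM with FGF21 (log2 fold change -0.53, SE 0.21). Cox7b had 7.32, 7.12 and 3.47 CPM with TBHP and 3.08, 4.88 and 2.92 CPM with FGF21 (-0.72, SE 0.29). The unstranded count of Cox7b is uncertain, because its counts on both strands together were 9.72 times the unstranded count analysed here, which leaves out reads that another gene overlaps. In both genes, FGF21 replicates 1 and 3 were below every TBHP library and FGF21 replicate 2 was above TBHP replicate 3. Cox6b1, which faces the intermembrane space, had 111.4, 105.3 and 69.9 CPM with TBHP and 64.3, 94.1 and 73.6 CPM with FGF21 (-0.30, SE 0.17). Cox7a2 had 8.88, 8.57 and 6.19 CPM with TBHP and 5.07, 7.42 and 5.54 CPM with FGF21 (-0.39, SE 0.19), and its deposited value is the mean of 2 gene identifiers. Cox7a2l, a factor in joining complexes III and IV into supercomplexes, was closer to level at 176.8, 167.2 and 143.3 CPM with TBHP and 155.1, 150.5 and 147.5 CPM with FGF21 (-0.10, SE 0.10). The testis-type genes Cox7b2 and Cox8c had 0 counts in every library. The isoforms of subunit 4 carry an i in their symbols and fall outside the rule. Cox4i1 had 428.4, 409.9 and 265.6 CPM with TBHP and 238.5, 342.1 and 249.5 CPM with FGF21 (-0.41, SE 0.18), and the hypoxia-responsive Cox4i2 had a log2 fold change of -0.06 (SE 0.14).

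In complex V, the genes of the catalytic F1 head were nearer to level than the rest. Atp5f1b, the beta subunit that holds the catalytic sites, had 957.2, 945.5 and 840.0 CPM with TBHP and 811.8, 894.0 and 843.6 CPM with FGF21 (log2 fold change -0.11, SE 0.10). Atp5f1a, the alpha subunit, had 440.7, 453.7 and 471.0 CPM with TBHP and 472.1, 457.6 and 545.0 CPM with FGF21 (0.11, SE 0.10). The 4 head genes had a median of -0.11 and a range from -0.24 to 0.11, and 0 of them reached an unadjusted p under 0.05. The 10 other genes tested were all lower, with a median of -0.33 and a range from -0.70 to -0.24. The ranges of the head and of the other genes thus met. Atp5me, subunit e at the dimer interface, was the lowest, with 28.0, 20.1 and 12.5 CPM with TBHP and 9.002, 19.2 and 8.98 CPM with FGF21 (-0.70, SE 0.31, unadjusted p = 0.0420 in edgeR). The genes of the proton-carrying c ring had similar values to each other. Atp5mc2 had 190.2, 191.0 and 112.3 CPM with TBHP and 113.3, 158.0 and 125.5 CPM with FGF21 (-0.31, SE 0.18). Atp5mc3 had 134.7, 144.2 and 92.4 CPM with TBHP and 89.0, 118.5 and 90.5 CPM with FGF21 (-0.32, SE 0.16). Atp5if1, which inhibits ATP hydrolysis by the synthase, had 184.8, 179.6 and 118.0 CPM with TBHP and 115.0, 163.3 and 110.5 CPM with FGF21 (-0.31, SE 0.18). In Atp5me, Atp5mc2, Atp5mc3 and Atp5if1 the groups overlapped, with TBHP replicate 3 below FGF21 replicate 2. Atp5hl1 had 0 counts in every library.

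**Figure D2:**
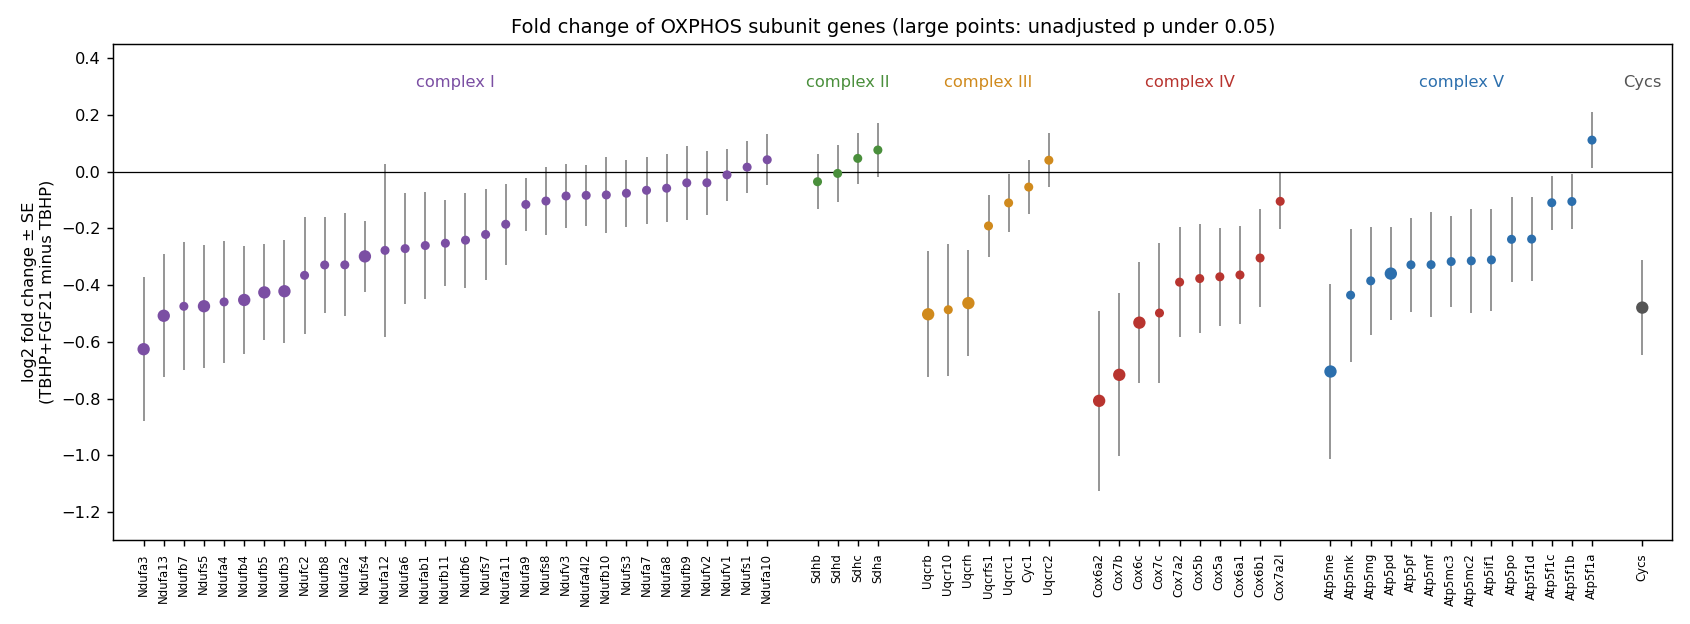
Log2 fold change of the OXPHOS subunit genes tested, TBHP+FGF21 minus TBHP (y axis), with 1 member not shown, each with its standard error as the bar and sorted within each complex. Large points mark the 15 genes with an unadjusted p under 0.05, and 0 genes passed after adjustment. The values reach from -0.81 (Cox6a2) to 0.11 (Atp5f1a), and the 4 genes of complex II lie within 0.08 of 0.

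How many members were called depended on which library was left out. The fit without TBHP+FGF21 replicate 2 was singled out because that library was the highest of its group in 53 members (38.7% of all genes). Leaving it out lowers that group in those members by construction, so the counts and p-values of this fit are no separate support. Without TBHP+FGF21 replicate 2, the library whose label names FGF22, 25 members were lower at an adjusted p under 0.05 in edgeR, where 3.72% of all genes were called in that direction and 7.50% in either, and 39 members had an unadjusted p under 0.05, against 23.6% of all genes. The 25 comprised 8 genes of complex I, all accessory, the 3 small genes of complex III, 7 genes of complex IV, 6 of complex V and Cycs. No gene of complex II, of the complex I core or of the F1 head was among them. In this fit the log2 fold change was -0.73 for Cycs (adjusted p = 0.00108), -1.25 for Cox6a2 (adjusted p = 0.00528), -1.15 for Atp5me (adjusted p = 0.00591) and -0.81 for Cox6c (adjusted p = 0.00591). In 32 of the 69 members both remaining FGF21 libraries lay below all 3 TBHP libraries, compared with 19.4% of all genes. By complex these were 10 of 33 in complex I, 0 of 4 in complex II, 4 of 7 in complex III, 8 of 10 in complex IV and 9 of 14 in complex V, with Cycs.

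Without TBHP replicate 3, 43 members had an unadjusted p under 0.05, all lower, against 15.3% of all genes in either direction and 8.26% in the lower one, and edgeR called 0 members after adjustment. Without TBHP replicate 1, TBHP replicate 2 or TBHP+FGF21 replicate 1, 0 members reached an unadjusted p under 0.05, where 4.41%, 2.92% and 4.15% of all genes did, and without TBHP+FGF21 replicate 3, 1 member did, against 2.96%. None was called after adjustment by edgeR in these 4 fits, where at most 1 gene of the whole table was (0.00868%, without TBHP+FGF21 replicate 3). The median over the members stayed below 0 in every fit, at -0.18, -0.19 and -0.48 without TBHP replicates 1, 2 and 3 and at -0.21, -0.45 and -0.21 without those of the TBHP+FGF21 group. The medians of complex IV ran from -0.58 to -0.27 and those of complex II from -0.0012 to 0.06. For the complex I core, the median was -0.11 without TBHP replicate 3 and 0.02 without TBHP+FGF21 replicate 1.

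**Figure D3:**
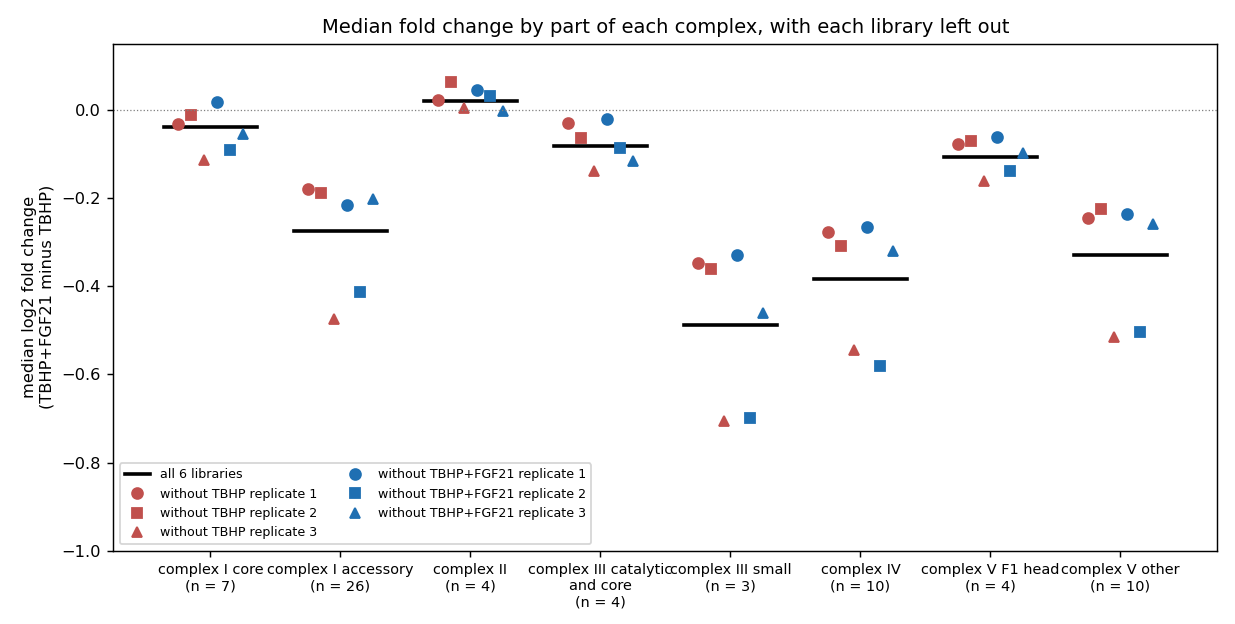
Median log2 fold change, TBHP+FGF21 minus TBHP (y axis), of the genes in each part of the complexes, with all 6 libraries (black line) and with each library left out (red symbols for TBHP, blue for TBHP+FGF21, with the shape giving the replicate). The medians without TBHP replicate 3 and without TBHP+FGF21 replicate 2 are the lowest for complex I accessory genes, small complex III genes, complex IV and the other genes of complex V, and complex II stays near 0.

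The other genes of the pathway, from lists compiled by hand, were compared in the same fit. Of the 13 mitochondrially encoded subunits, 12 were lower and 1 was at 0.00026, with a median of -0.24, and 4 had an unadjusted p under 0.05, all lower, against 4.29% of all genes in that direction. This count was 0 without TBHP replicate 1, TBHP replicate 2 or TBHP+FGF21 replicate 1, 1 without TBHP+FGF21 replicate 3, and 8 without TBHP replicate 3 or TBHP+FGF21 replicate 2. The 4 were ND3, COX2, ATP6 and ATP8, with log2 fold changes of -0.72 (SE 0.31), -0.38 (SE 0.17), -0.28 (SE 0.12) and -0.89 (SE 0.31), named after their values were seen. ATP8 had only 16 to 49 counts in a library, so its value is uncertain. The large catalytic subunit COX1 differed little (-0.05, SE 0.10). The 37 assembly factors tested had a median of -0.11, with 30 lower and 7 higher. Of these, 1 had an unadjusted p under 0.05, against 8.92% of all genes. It was Ndufaf2, a complex I assembly factor (-0.66, SE 0.26, adjusted p = 0.553 in edgeR). Enzymes of the tricarboxylic acid cycle had a median of 0.01, with 7 of 13 higher. Here too 1 had an unadjusted p under 0.05, against the same 8.92%. It was Idh3a, a subunit of isocitrate dehydrogenase (-0.28, SE 0.10, adjusted p = 0.553 in edgeR). Of 14 regulators of mitochondrial biogenesis tested, 10 were lower and 4 higher, with a median of -0.05. Nrf1, which encodes the factor whose motif was searched above, had 25.1, 27.0 and 24.4 CPM with TBHP and 32.1, 31.5 and 29.3 CPM with FGF21. Its log2 fold change was 0.28 (SE 0.10, unadjusted p = 0.0163, adjusted p = 0.553 in edgeR). It was the 1 of the 14 at an unadjusted p under 0.05, against 8.92% of all genes. Its groups did not overlap, as in 9.90% of all genes. Of the other factors whose motifs were searched, Esrra, which encodes an estrogen-related receptor, had 117.0, 104.4 and 78.2 CPM with TBHP and 68.3, 100.2 and 72.4 CPM with FGF21 (-0.31, SE 0.16), in the same arrangement of libraries as most OXPHOS members. Without TBHP+FGF21 replicate 2, its highest FGF21 library, Esrra was at -0.50 (adjusted p = 0.0320 in edgeR). Leaving out that library lowers the group by construction, and this fit called 7.50% of all genes, so the call is no separate support. Gabpa and Yy1 had log2 fold changes of -0.12 (SE 0.12) and -0.14 (SE 0.11). Ppargc1a, the coactivator PGC-1alpha, had 1 count in all.

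Genes outside oxidative phosphorylation moved with the same libraries. Of 63 cytosolic ribosomal protein genes tested, 62 were lower, with a median of -0.34, and replicate 2 was the highest of the TBHP+FGF21 group in 58 (38.7% of all genes) and replicate 3 the lowest of the TBHP group in 60 (36.8% of all genes). Their summed level was 34211, 33935 and 25208 CPM with TBHP and 23648, 29771 and 24747 CPM with FGF21. Without TBHP+FGF21 replicate 2, 25 of them were called at an adjusted p under 0.05 by edgeR, all lower, against 3.72% of all genes in that direction. The 66 mitochondrial ribosomal protein genes tested had a median of -0.14, with 61 lower. The shares of reads that were ambiguous between genes were 2.04%, 2.09% and 1.83% with TBHP and 1.72%, 2.01% and 1.82% with FGF21, and those left unmapped 1.34%, 1.40% and 1.27% against 1.24%, 1.38% and 1.28%. Both shares were thus higher in the 3 libraries with the higher OXPHOS levels. Acan went the opposite way, with 2681, 2506 and 2939 CPM with TBHP and 3476, 2864 and 4355 CPM with FGF21. The part of these features in the OXPHOS values was not tested.

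**Figure D4:**
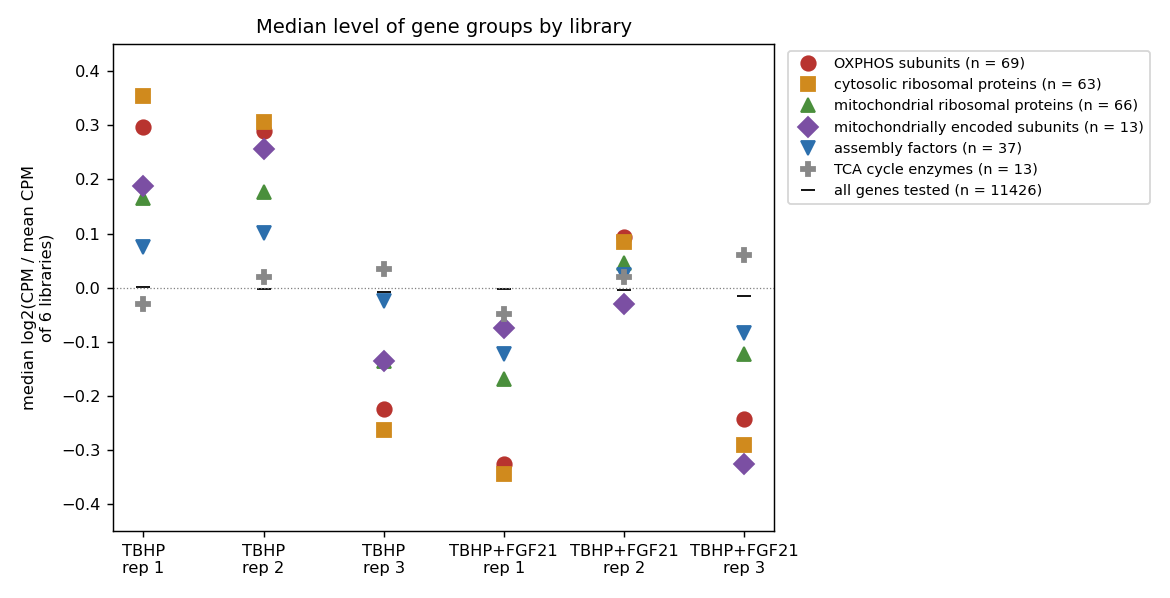
Median level of gene groups in each library, as the log2 ratio of CPM to the mean over the 6 libraries (y axis), with 1 symbol per group. The OXPHOS subunits (0.30, 0.29, -0.22, -0.33, 0.09 and -0.24 from left to right) and the cytosolic ribosomal protein genes (0.35, 0.31, -0.26, -0.34, 0.08 and -0.29) lie close together in every library, and the median of all genes tested stays within 0.02 of 0.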

How the data were processed

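RNA-seq had been measured in 6 libraries, grouped by their titles. The authors deposited whole read counts per Ensembl identifier for each library, without normalization, and a combined table of raw counts per symbol. The latter was handled as a table of estimated counts because 22 rows deposited under 1 symbol are means of 2 identifiers, which were rounded up. Submitters' processing notes name STAR and featureCounts; versions, genome build and annotation are not given in the sources used here. Unmapped, multimapping (6.27% to 7.02%), ambiguous and gene-free reads stayed out. The kit was labelled directional, but reads split evenly between strands, so antisense overlaps are uncertain.

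edgeR 4.0.16 (R 4.3.3) was run with TMM, filterByExpr (minimum count 10, total 15), a design of condition alone, quasi-likelihood tests and Benjamini-Hochberg adjustment over 11426 genes. Alternatives used DESeq2 1.42.0, limma 3.58.1 (voom, and log2(scaled count + 1)), other scalings and filters, the per-sample counts, a replicate block and each library left out. The fits were tested on simulated counts. Figures and tables were made with Python 3.11.15 and matplotlib 3.10.9.

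The genes named were, per complex, those with the highest mean, the largest and smallest fold change and the smallest p, then the 10 smallest p, Cycs, complex II, isoform groups, Atp5if1 and members removed by the filter. Members, lists and tests were chosen with earlier results of these data known. No pair of libraries agreed within counting noise (chi-square per gene 6.98 to 58.3). By this measure, TBHP+FGF21 replicate 2 was nearer to TBHP replicates 1, 2 and 3 (7.4, 9.5 and 8.5) than to its own group. Its values against TBHP+FGF21 replicates 1 and 3 were 22.9 and 44.5. TBHP replicate 3 was at 21.3 and 23.3 against TBHP replicates 1 and 2. Against TBHP+FGF21 replicates 1, 2 and 3 it was at 15.3, 8.5 and 38.3. For 1 member, the values are not reported here on their own.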

Additional observations from a re-analysis of the deposited data

How the results depend on the processing

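The number of genes called over the whole table at an adjusted p under 0.05 was 1 with edgeR, 4 with DESeq2, 0 with limma-voom, 0 with limma on log2(scaled count + 1), 5 without the filter on low counts, 0 from the per-sample counts, 2 with the replicate block and 0 to 867 when each library was left out. The number of OXPHOS members at an unadjusted p under 0.05 differed between fits. It did not always follow the share of all genes that reached it, given in brackets. It was 15 with edgeR (8.92%), 17 with DESeq2 (7.98%) and 0 with limma on log2(scaled count + 1) (4.50%). It was 29 without the filter (9.66%) and 35 with the replicate block (14.0%). When each library was left out it was 0 to 43. The high counts were 39 without TBHP+FGF21 replicate 2 (23.6%) and 43 without TBHP replicate 3 (15.3%). The cause was not tested. The replicate block left 0 members at an adjusted p under 0.05. Replicates with the same number are not known to share more than that number. Their deviations from the group means correlated at -0.12, 0.21 and 0.15, and those of differently numbered replicates at -0.26 to 0.18. These values cannot show whether replicates were paired, and the block was not used elsewhere. The medians of the members and of each complex moved by less than the SD between replicates under every alternative. That SD was 0.263 for all members, beside a median of -0.278. The libraries left out also enter that SD, so this is no test of stability. Signs turned in 4 single genes, all close to 0. With each library left out, Cox4i2 ranged from -0.129 to 0.075, Sdhb from -0.109 to 0.021, Sdhd from -0.0452 to 0.0687 and Uqcrc2 from -0.0053 to 0.0946, and the sign was the opposite one for Cox4i2 and Sdhd without TBHP replicate 2 (0.075 and 0.0687) or TBHP+FGF21 replicate 1 (0.066 and 0.060), for Sdhb without TBHP replicate 2 and for Uqcrc2 without TBHP replicate 1 or TBHP+FGF21 replicate 3 (-0.0053 and -0.0011). Sdhd was also 0.0151 with library sizes alone, 0.0012 with limma on the log2 scale, 0.0054 without the filter and 0.0019 with at least 10 counts in every library. Depth and the number of libraries were not compared as limits.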

Other observations

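Of the 8 pseudogene rows that the choice of members left out, 4 had a count, and Ndufs5-ps2 was the one with enough counts to be tested. It had 50, 45 and 21 counts in TBHP replicates 1, 2 and 3 and 22, 25 and 33 counts in those of the TBHP+FGF21 group, with a log2 fold change of -0.64 (SE 0.35, unadjusted p = 0.0950 in edgeR). Its parent Ndufs5, an accessory subunit of complex I, had 44.9, 40.4 and 26.0 CPM with TBHP and 21.98, 36.1 and 21.9 CPM with FGF21. Reads of a pseudogene and its parent can be exchanged in counting, so both values are uncertain. TBHP replicate 3 was the lowest of its group in both, whereas the highest FGF21 library was replicate 3 for the pseudogene and replicate 2 for the parent.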
